A study of Mus musculus with 2 samples.

Results

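The muscle miRNA genes, often called myomiRs, were examined in limbs of mouse embryos at embryonic day 13.5. The 9 genes are Mir206, Mir1a-1, Mir1b, Mir133a-1, Mir133a-2, Mir133b, Mir208a, Mir208b and Mir499. They were taken by gene identifier from the 1973 miRNA genes in the count tables, by a rule that uses no counts. Earlier results of these data were known when they were chosen. The limbs came from B6NCrl embryos of both sexes pooled, described as healthy, with no mutation or treatment in the labels. The series has 1 group of 2 biological replicates, prepared from separate tissue samples under the same donor label, so nothing was compared between conditions. The p-values below therefore set 1 library against the other. The tissue is whole limb, so fewer muscle cells and less of a miRNA per cell cannot be told apart.

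Skeletal and cardiac muscle express a small set of miRNAs that repress non-muscle and cell-cycle genes as the cells differentiate. Mir1 and Mir133 genes lie in pairs that are transcribed together under the control of MyoD, SRF and MEF2, and Mir206 and Mir133b form a further pair that is restricted to skeletal muscle. Mir208a, Mir208b and Mir499 instead lie inside myosin heavy chain genes and are made with them. A mature miRNA selects its targets mainly through its seed, bases 2 to 8 from the 5′ end.

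The mature arms below are those of the members with the clearest signal, and of their closest relatives. They are from RefSeq on GRCm38.p6, the same assembly as mm10, written 5′ to 3′ with the seed in capitals, to show which members share targets and which can be told apart by their reads.
miR-206-3p: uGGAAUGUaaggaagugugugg
miR-206-5p: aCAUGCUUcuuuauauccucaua
miR-1a-1-5p: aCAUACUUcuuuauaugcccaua
miR-133b-3p: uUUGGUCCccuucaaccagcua
miR-208a-3p: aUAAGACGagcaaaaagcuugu
miR-208b-3p: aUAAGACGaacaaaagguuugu
miR-499-5p: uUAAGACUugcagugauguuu

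The 208 arms have the same seed and miR-499-5p matches it in bases 2 to 7. From miR-208a-3p to miR-208b-3p the 3 differences, counted from the 5′ end, are G10A, A16G and C18U, all outside the seed. The same count gives 3 differences from miR-206-5p to miR-1a-1-5p, G5A, C17G and U19C, the first of them within the seed. In the RefSeq arms used, the seed of miR-206-3p was in 2 other mouse arms, miR-6349 and miR-6382. Their genes Mir6349 and Mir6382 had 0 counts in both libraries. The set used held 11 arms from 6 of the 9 members and is not complete, so further arms may have these seeds. As background, the main arms of Mir1 and Mir206 have the same seed, as do those of Mir133a and Mir133b. Mir1b, Mir133a-1 and Mir133a-2 are named only.

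Both arms of a hairpin enter the same count. The Mir206 hairpin, which held most of the counts placed at the 9 genes, is shown with its 5p and then its 3p arm in capitals. The 3p arm is the one usually described as active, but the tables do not say which arm the reads came from.
Mir206: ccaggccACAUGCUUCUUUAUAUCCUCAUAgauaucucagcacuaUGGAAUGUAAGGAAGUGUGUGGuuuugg

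The levels below are CPM, sense-strand counts scaled to the same total of sense counts in miRNA genes. That total was 5927321 in replicate 1 and 6003632 in replicate 2. Counts were not divided by hairpin length, as the sequenced RNAs were of a short size range rather than fragments of longer transcripts. The 9 muscle genes together held 23697 counts in replicate 1 and 25315 in replicate 2, or 0.411% ± 0.0155 (SD, n = 2). Mir206 made up 93.6% of them in replicate 1 and 93.5% in replicate 2. Reads that fit several places, as those of Mir1 and Mir133a can, are not among these counts. Detection required 10 sense reads per gene in both libraries. By that rule 6 of the 9 members were detected (Mir206, Mir208b, Mir499, Mir133b, Mir208a and Mir1b), against 372 of all 1973 genes, or 18.9%. Mir1a-1, Mir133a-1 and Mir133a-2 fell below it.

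Mir206 is the skeletal muscle miRNA gene that promotes myoblast differentiation and repair of nerve-muscle contacts. By these counts it was the only member among the abundant genes of the limb. It had 22175 counts in replicate 1 and 23657 in replicate 2, which is 3741 CPM (95% Poisson interval 3692 to 3791, counting error only) and 3940 CPM (3890 to 3991). Its mean of 3841 ± 141 CPM (SD, n = 2) ranked 48 of 1973. Mir206 lies on chromosome 1 at 20679010 to 20679082 (mm10, plus strand) and overlaps an exon of the long non-coding gene Gm28653 without lying wholly inside it. The genes next to it by mean were Mir382 and Mir125a above and Mir181d and Mir429 below. Mir382, at 4079 and 4226 CPM, was above Mir206 in both libraries. The remaining genes overlapped it: Mir125a was at 4173 and 3571 CPM, Mir181d at 3994 and 3507 CPM and Mir429 at 3378 and 4082 CPM. The rank of Mir206 among these was thus not resolved by 2 libraries.

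**Figure D1:**
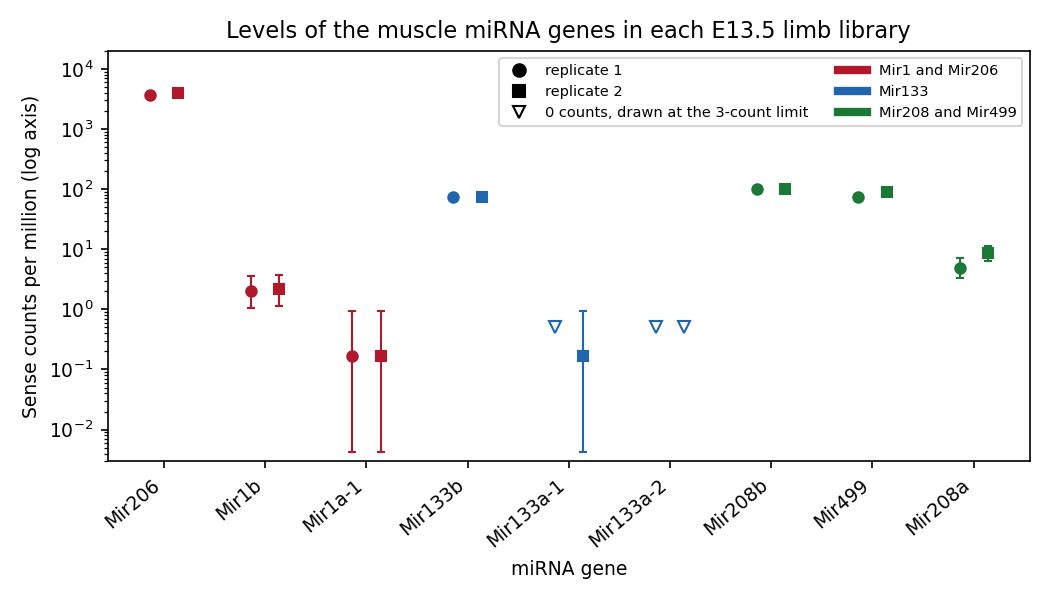
CPM on a log axis for each of the 9 muscle miRNA genes, with circles for replicate 1, squares for replicate 2 and bars for the 95% Poisson interval of each library; open triangles mark 0 counts, drawn at the 3-count limit. Mir206 stands near 3841 CPM, Mir208b, Mir499 and Mir133b between 73.6 and 101.1 CPM, and Mir1a-1, Mir133a-1 and Mir133a-2 at 1 count or fewer per library.

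Mir133b, the partner of Mir206, was far scarcer than it. Mir133 miRNAs are known for holding myoblasts in proliferation and repressing SRF. Mir133b lies 3686 bases downstream of Mir206, at 20682769 to 20682887 on the same strand, inside an exon of Gm28653. It had 446 counts in the first library and 452 in the second, equal to 75.2 and 75.3 CPM, with a rank of 200. Mir206 exceeded it by 49.7-fold in replicate 1 and 52.3-fold in replicate 2, a log2 ratio of 5.67 ± 0.05 (SD, n = 2). That gap is one of counted reads. Bases 1 to 21 of miR-133b-3p, all but its last, also stand in the hairpins of Mir133a-1 and Mir133a-2. A read of miR-133b-3p that lacks the last base therefore fits 3 hairpins, whereas miR-206-3p stayed in 1 hairpin with its last base or last 2 bases removed. Reads that map to several places are listed on a separate line of the tables and were 30.8% of all reads in replicate 1 and 29.5% in replicate 2. How many of them came from miR-133b is not recorded, and its part in the gap was not tested.

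The 3 genes inside myosin heavy chain genes were all detected. Mir208b lies in an intron of Myh7, which encodes the slow skeletal and fetal cardiac beta-myosin heavy chain, on chromosome 14 at 54975700 to 54975776 (minus strand). It had 598 counts in the first library and 607 in the second, equal to 100.9 and 101.1 CPM. The 2 libraries were nearly equal, and the gene ranked 189. Mir499 lies in an intron of Myh7b, a slow-type myosin gene, on chromosome 2 at 155622880 to 155622958 (plus strand). It had 436 counts in the first library and 532 in the second, equal to 73.6 and 88.6 CPM. Its level was below Mir208b in both libraries, by a log2 ratio of 0.46 in replicate 1 and 0.19 in replicate 2.

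Mir208a, which lies in an intron of Myh6, the gene for the alpha-myosin heavy chain of heart, was the scarcest of the 3. Its position is 54949060 to 54949142 on chromosome 14, minus strand, with 26557 bases between it and Mir208b. It had 29 counts in replicate 1 and 52 in replicate 2, or 4.89 CPM (95% Poisson interval 3.28 to 7.03) and 8.66 CPM (6.47 to 11.4). Mir208b exceeded Mir208a 20.6-fold in replicate 1 and 11.7-fold in replicate 2, a log2 ratio of 3.94 ± 0.57 (SD, n = 2). The 3p arms of the 2 genes differ at the positions given above, their 5p arms differ at 6 of 22 positions, and the longest stretch common to their hairpins was 14 bases, so reads of at least 15 bases without errors separate them. The myosin transcripts themselves are not in these tables of miRNA genes. The 3 genes together held 0.0189% ± 0.00135 (SD, n = 2) of counts, against 0.00753% for the 3 Mir133 genes. Of the Mir133 counts, 446 of 446 in replicate 1 and 452 of 453 in replicate 2 were at Mir133b. Reads that fit several Mir133 genes are not among them, so these values do not rank the 2 families.

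Mir1 and Mir133a, which in differentiated muscle are abundant miRNAs, were nearly without counts of their own. Mir1a-1, on chromosome 2 at 180389048 to 180389124 (plus strand), had 1 count in each library. Mir133a-2, 9254 bases further along the same strand at 180398379 to 180398482, had 0 counts in both, so that a level of up to 0.506 CPM (replicate 1) or 0.4997 CPM (replicate 2) cannot be told from none (3 counts, counting error only). Neither overlaps another annotated gene. Mir133a-1, on chromosome 18 at 10782909 to 10782976 (minus strand) in an intron of Mir133a-1hg, had 0 counts in replicate 1 and 1 in replicate 2. Mir1b lies at 10785446 to 10785567 of that chromosome on the plus strand, within an intron of Mib1. It had 12 and 13 counts, 2.02 CPM (95% Poisson interval 1.05 to 3.54) and 2.17 CPM (1.15 to 3.70).

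These 4 genes are the members with long copies elsewhere among 2202 annotated miRNA hairpins. Mir133a-1 and Mir133a-2 have 31 identical bases in a row, and Mir1a-1 has 28 in common with Mir1a-2 and, on the opposite strand, with Mir1b. Mir1a-2 has no row in the tables. Of all 22-base windows, the length of many mature miRNAs, 72.3% of those in Mir133a-1, 84.3% in Mir133a-2, 87.5% in Mir1a-1 and 93.1% in Mir1b were in no other hairpin. The value was 100% for Mir206, Mir133b, Mir208a, Mir208b and Mir499, and at 18 bases it stayed at 100% for all of these except Mir133b, with 96.1%. These windows cover the whole hairpin and not the mature arms alone, so the percentages are not shares of reads that could be placed. For example, miR-133b-3p without its last base stands in both Mir133a hairpins. A low count of Mir1a-1, Mir133a-1 or Mir133a-2 is thus a count of reads placed at that gene alone, and the total of Mir1 and Mir133a in the limb was not measurable from these tables.

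**Figure D2:**
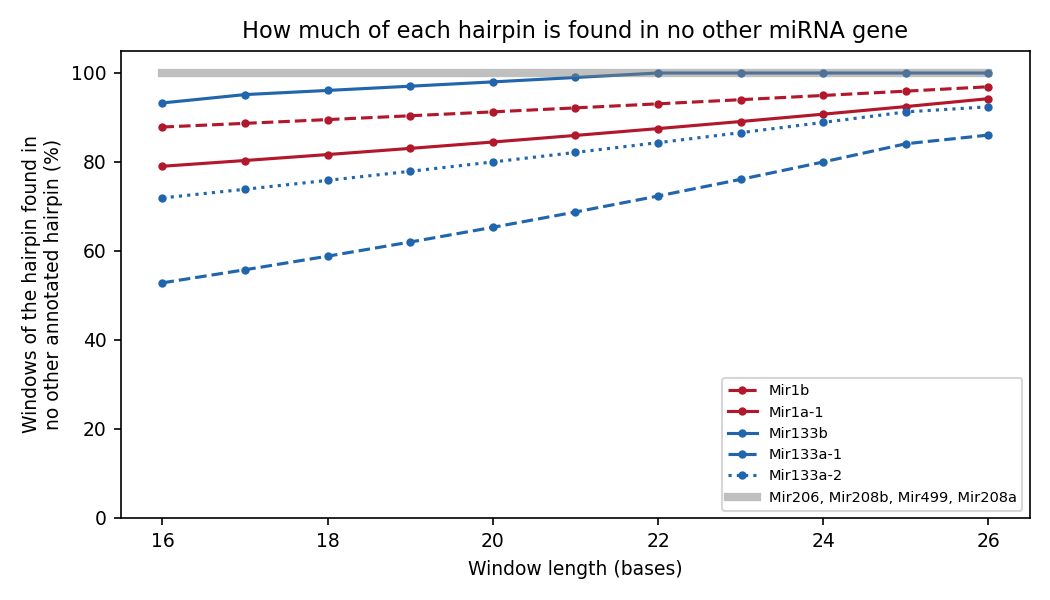
For each muscle miRNA gene, the percent of windows of its hairpin (y axis) that are found in no other annotated miRNA hairpin, at window lengths of 16 to 26 bases (x axis). Mir206, Mir208a, Mir208b and Mir499 stay at 100%, Mir133b reaches 100% at 22 bases, and the lowest curve is Mir133a-1, with 72.3% at 22 bases.

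By mean the order was Mir206, Mir208b, Mir499, Mir133b, Mir208a, Mir1b, Mir1a-1, Mir133a-1 and Mir133a-2. Mir206 was 37.1-fold above Mir208b in replicate 1 and 39.0-fold in replicate 2. Mir499 and Mir133b did not differ beyond their spread: Mir133b was the higher of the 2 in replicate 1 and Mir499 in replicate 2. Mir208a was above Mir1b in both libraries, though their intervals overlapped in replicate 1. The last 3 rest on 1 count or none in a library, which is too few to order them.

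**Figure D3:**
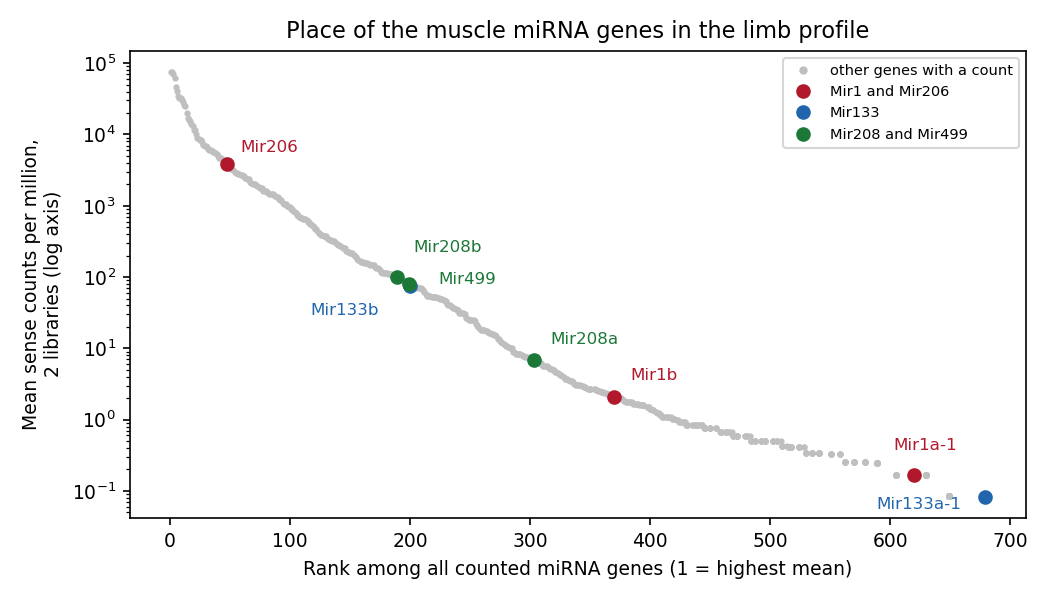
Mean CPM over the 2 libraries (log axis) against the rank of the gene, for all miRNA genes with a count (gray) and the muscle miRNA genes (colored by family). Mir206 ranks 48, Mir208b 189, Mir499 199, Mir133b 200, Mir208a 303 and Mir1b 370; Mir133a-2, with 0 counts, is not drawn.

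None of the 6 tested muscle genes had a log2 ratio of 1 or more in size between the 2 libraries. All 6 were higher in replicate 2, though Mir133b and Mir208b by a log2 ratio of only 0.00, against 210 of all 444 tested genes. In a two-sided exact binomial test per gene with Benjamini-Hochberg adjustment, run on the 444 genes with at least 10 counts over both libraries, a gene was called at an adjusted p below 0.05 if the log2 ratio was also 1 or more in size. None of the 6 tested members was called, against 15 of 444 genes, or 3.38%. On the adjusted p alone 3 of the 6 passed, against 179 of 444 genes, or 40.3%, so the members' share was close to that of all genes. Mir206 was 1.05-fold higher in replicate 2 (log2 ratio 0.07, adjusted p = 1.44e-07 by the exact binomial test), a small difference that its many counts resolve. Of the 44 genes within 2-fold of its mean, 32 had a larger absolute log2 ratio between the libraries. Mir499 was 1.20-fold higher in replicate 2 (log2 ratio 0.27, adjusted p = 0.0124 by the same exact test), with 22 of 71 genes of like level differing more.

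Mir208a had the widest difference of the tested members, 1.76-fold higher in replicate 2 (log2 ratio 0.81, adjusted p = 0.0365 by the exact binomial test). Among 62 genes of like level 11 differed more, and the median absolute log2 ratio of those 62 was 0.34. When all genes with at least 1 count were tested, its adjusted p was 0.0584 by the exact test and it no longer passed. Mir133b, Mir208b and Mir1b had log2 ratios of 0.00, 0.00 and 0.09 with an adjusted p of 1 in the same exact test. For Mir133b all 69 genes of like level differed more between the libraries. The test sets 1 library against the other and takes in only counting error. Nothing in the labels says whether the tissue samples came from separate litters, so the spread may be partly technical.

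**Figure D4:**
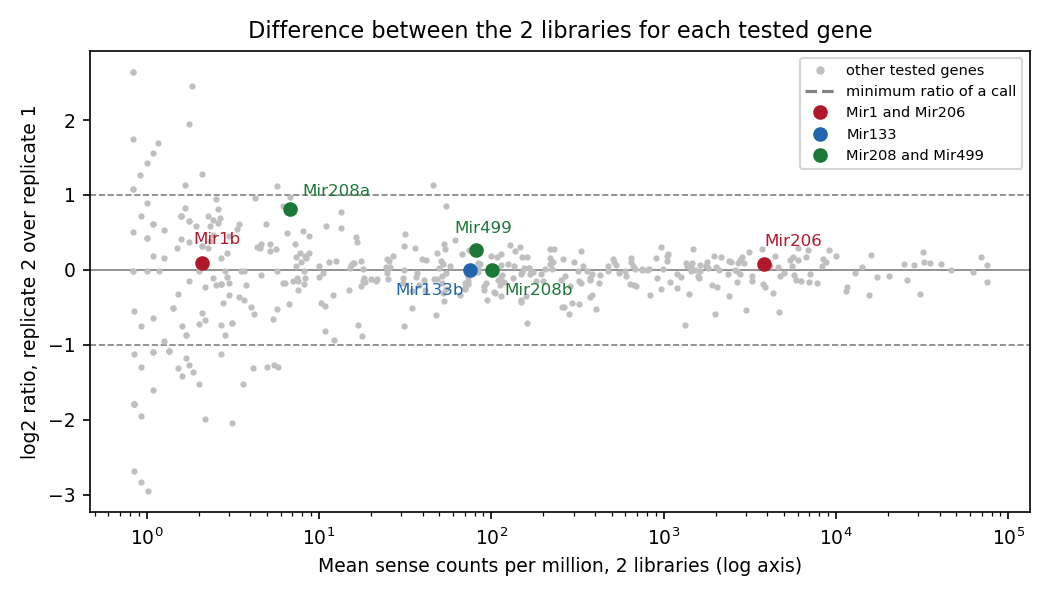
The log2 ratio of replicate 2 over replicate 1 (y axis) against mean CPM (x axis, log) for the 444 tested genes, with the muscle miRNA genes colored by family and dashed lines at the minimum ratio of a call. All 6 tested muscle genes lie between the dashed lines, and Mir208a, at 0.81, is the farthest from 0.

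Markers of other tissues were set beside the muscle genes. Smooth muscle is marked by Mir143, which had 6318 and 7120 CPM, and Mir145a, which had 107 and 109 CPM. In both libraries Mir143 was above Mir206 and Mir145a below it. The liver gene Mir122 was at 66.8 CPM in replicate 1 and 80.6 CPM in replicate 2, above the heart gene Mir208a in both. The erythroid genes Mir451a and Mir144 were at 74.7 and 48.8 CPM in replicate 1 and at 74.8 and 53.1 CPM in replicate 2. Of the 5 neuronal genes with a row, Mir9-3 had 10 and 20 counts, while Mir9-2 and all 3 Mir124a genes had 0 sense counts in both libraries. The Mir124a genes encode the same mature miRNA, so its reads fit several places. Sequences in common among the Mir9 genes were not searched, so their counts may also leave out reads that fit several places. The genes that mark limb position by their place in Hox clusters, Mir196b and Mir10b, were at 79590 and 13937 CPM in replicate 1 and at 70886 and 14265 CPM in replicate 2. Whether RNA of other organs takes part in the Mir208a level was not tested.

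Other miRNA genes that have been linked to muscle development, though none is specific to muscle, were mostly present. Of 34 listed symbols 29 had a row, and 26 of these were detected (all but Mir29b-1, Mir29b-2 and Mir489). The median over the 29 was 220 CPM, against 0 CPM over all genes and 106 CPM over detected genes. Sequences in common among the listed genes were not searched. Where a miRNA has several genes, as with Mir29b-1 and Mir29b-2 or Mir181a-1 and Mir181a-2, a count may miss reads that also fit another copy. The low counts of the Mir29b genes therefore do not show that miR-29b was absent. Mir322 and Mir503, which favor exit of myoblasts from the cell cycle, were at 65323 and 1825 CPM in replicate 1 and at 73813 and 2084 CPM in replicate 2. Mir214, which represses Ezh2 during muscle differentiation, was at 27909 and 29093 CPM, and Mir23a, a repressor of muscle atrophy ligases, at 14807 and 16965 CPM. Mir27b, which represses Pax3 in muscle progenitors, was at 2809 and 3008 CPM, and Mir181a-1, whose miRNA represses Hoxa11 in myoblasts, at 2667 and 2651 CPM. Of the 29, Mir322, Mir214 and Mir23a were above Mir206. None of the 26 tested was called between the libraries, against 3.38% of all tested genes. By adjusted p alone (exact binomial test), 12 of the 26 passed, 8 higher and 4 lower in replicate 2, against 40.3% of all tested genes, so neither count sets the list apart.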

How the data were processed

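Small RNA from total RNA of 2 limb tissue samples was sequenced. The authors deposited whole-number read counts per miRNA gene for each library. Per the deposited text, they derive from alignments on mm10 with GENCODE M4. Which aligner and counting program were used is not given in the sources used here. No header names the 3 columns, which were read from their layout as either-strand, sense and antisense counts, as the first equals the sum of the others in every gene. Replicate 1 held 12407140 reads and replicate 2 held 12657170. The 4 lines for reads in no gene, with unmapped (17.2% and 18.6%) and multimapping reads, stayed out of library sizes. Antisense counts were 3.17% and 3.26% of gene counts.

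Names and positions came from GENCODE M21 (GRCm38), which matched 1894 of 1973 identifiers. Mature arms and the hairpin came from RefSeq (GRCm38.p6), with the entries of chromosome 18 left out. Arms and hairpin windows were searched on both strands of 2202 GENCODE M21 hairpins, an alternative chosen after seeing the data in place of the planned search of the genome, whose sequence was not used here. The opposite strand of the same place was not counted as a copy. Families were grouped by name. Levels are mean ± SD over 2 libraries, and the smallest two-sided exact p of 2 libraries is 0.5. Log2 ratios add 0.5 counts, whereas fold values between genes are ratios of the counts with nothing added. The library test used SciPy 1.17.1 with totals as library sizes and was tested on simulated data. Genes of like level are tested genes within 2-fold of a member's mean CPM. TMM factors (edgeR 4.0.16) and DESeq2 1.42.0 size factors, other count minimums, pseudocounts, denominators and both strands were tried as alternatives. Named beside the members are the 6 detected genes of highest mean in the muscle-linked list, the 2 genes next above and below Mir206 and the tissue markers. Genes with a member's seed, and Mir486, Mir489 and Mir675, were named after their values were seen. The members and lists were chosen with earlier results of these data known.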

Additional observations from a re-analysis of the deposited data

Results flagged for a closer look

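Mir1b had antisense counts, a column that enters none of the levels above: 5 in replicate 2 and 2 in replicate 1, where a count of 0 would allow up to 3. It was the only one of the 9 muscle genes with any antisense read. On that strand the annotation places Mir1a-2 (chromosome 18, 10785481 to 10785552, minus strand), which has no row in the tables. Over all 1973 genes, 26 had more than 3 antisense counts in at least 1 library.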

How the results depend on the processing

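With all reads of a library as the denominator, the 9 genes held 0.1955%, and with all mapped reads 0.238%. Mir206 was then at 1828 and 2227 CPM, the Mir1 and Mir206 genes at 0.183% and 0.223%, the Mir133 genes at 0.00359% and 0.00437%, and the Mir208 and Mir499 genes at 0.00899% and 0.0110%. These values fall by construction, as the denominators hold more reads. Counting either strand gave 0.00729% for the Mir133 genes and 2.59 CPM for Mir1b. With TMM or DESeq2 factors Mir206 was at 3841 CPM. Without the minimum ratio 179 genes and 3 members passed between the libraries, and under the other settings 12 to 15 genes and 0 members. From each library alone, the log2 ratio of Mir206 over Mir133b was 5.63 and 5.71, that of Mir208b over Mir499 0.46 and 0.19, and that of Mir208b over Mir208a 4.34 and 3.53. With minimums of 1 to 100 counts, 7 to 4 members and 27 to 23 other muscle-linked genes were detected. Of the 11 mature arms, 11 were in 1 hairpin whole and 10 without the last base, the exception being miR-133b-3p. No paired analysis was possible because there is 1 group. Depth limits Mir208a and Mir1b, at 52 counts or fewer per library, and Mir1a-1, Mir133a-1 and Mir133a-2, at 1 count or none, could not be ordered.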

Other observations

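Mir486, a muscle-enriched miRNA gene that promotes differentiation, had reads on both strands, with 89 sense and 8 antisense counts in replicate 1 and 92 and 12 in replicate 2. Its sense level was 15.0 CPM in replicate 1 and 15.3 CPM in replicate 2, between those of Mir133b and Mir208a. Mir489, a miRNA gene of quiescent muscle stem cells, had 2 and 3 counts. Mir675, made from H19, was at 153 and 146 CPM, above Mir208b in both libraries.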
